A study of Sus scrofa with 6 samples.

Results

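The genes described here are the activator protein 1 (AP-1) subunits and other immediate early transcription factors of porcine granulosa cells (GCs), the somatic cells that surround the oocyte. A fixed set of 10 gene names was looked up among the 17950 Ensembl genes of the expression table. Of these, 6 were matched by name, namely *FOS*, *FOSL1*, *JUNB*, *EGR1*, *ATF3* and *MYC*. The other 4, *FOSB*, *FOSL2*, *JUN* and *JUND*, were not matched and were not analysed here.

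GCs from ovaries of pre-pubertal Landrace gilts were infected with lentivirus for 72 h. The pLVX-*RBP4* group received a virus carrying porcine retinol binding protein 4 (*RBP4*) together with the green fluorescent protein ZsGreen. The CTRL group received the same vector with ZsGreen alone, so both groups were infected and carried the reporter. Each group had 3 RNA-seq libraries, and the labels do not tell which animals gave the cells of each library. The table holds 1 value per gene and group, in FPKM (fragments scaled to transcript length and to the mapped fragments of a library). The spread between libraries is therefore not known, no test between the groups was possible, and the table gives no fragment counts per gene. By the study's sequencing summary, each pLVX-*RBP4* library had more clean reads and a larger mapped share than any CTRL library. Whether this bears on the differences given here was not tested.

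AP-1 is a dimer of basic leucine zipper (bZIP) proteins. A Jun protein can pair with itself or with a Fos protein, whereas Fos proteins need a partner of another family. Immediate early genes such as *FOS*, *JUNB*, *EGR1* and *MYC* are switched on by growth factors, serum or stress through MAP kinases, without prior protein synthesis, and their mRNAs are short-lived. In the ovary, *EGR1* and AP-1 genes are known for their induction in GCs by the ovulatory surge of luteinizing hormone.

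As a check of the group labels, *RBP4* had 1.10 FPKM in CTRL GCs and 92.3 FPKM in pLVX-*RBP4* GCs. Changes are given as the difference of log2(FPKM + 1), pLVX-*RBP4* minus CTRL, on which changes of weakly expressed genes come out smaller than their ratios. Counts and medians cover the 12382 genes with a mean of at least 1 FPKM over both groups, called the genes tested although no statistical test was run on them. Over these genes the median log2 fold change was 0.0014, and the quartiles were -0.12 and 0.14. All 6 matched members passed this limit.

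*EGR1* was the most abundant of the 6 genes, and *FOSL1* the least abundant, in both groups. In CTRL GCs the order by level was *EGR1* (358.6 FPKM), *JUNB* (161.6 FPKM), *FOS* (69.8 FPKM), *MYC* (69.5 FPKM), *ATF3* (68.7 FPKM) and *FOSL1* (24.6 FPKM). In pLVX-*RBP4* GCs *EGR1* (299.2 FPKM) and *JUNB* (172.4 FPKM) again came first, followed by *MYC* (66.8 FPKM), *ATF3* (61.6 FPKM), *FOS* (61.0 FPKM) and *FOSL1* (22.9 FPKM). *FOS*, *MYC* and *ATF3* thus lay close together and changed places, and with no spread between libraries their order in a group carries no weight. Among all 17950 genes *EGR1* ranked 273rd in CTRL GCs and 349th in pLVX-*RBP4* GCs. *FOSL1* ranked 3798th and 4042nd.

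**Figure D1:**
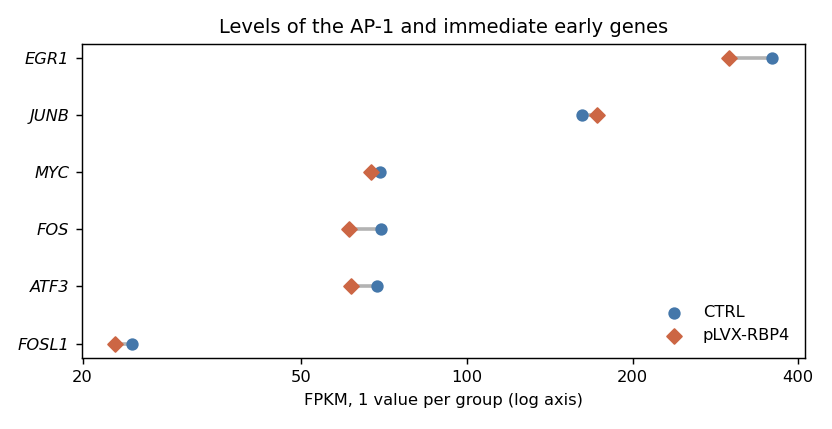
Level of each matched gene in FPKM on a log axis, with 1 value per group (circle, CTRL; diamond, pLVX-*RBP4*) and a grey line between both. *EGR1* spans 358.6 to 299.2 FPKM, *JUNB* is the gene whose diamond lies to the right, and *FOS*, *MYC* and *ATF3* overlap near 61.0 to 69.8 FPKM.

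The pLVX-*RBP4* group had the lower value for 5 of the 6 genes, and *JUNB* had the higher value. With rescaling to a common sum *MYC* was also higher, at a log2 fold change of 0.022. Over all genes tested 49.8% were lower and 50.2% higher in pLVX-*RBP4* GCs. The median log2 fold change of the 6 genes was -0.13, or -0.049 with a common sum, which itself moved the median of all genes tested to 0.072. On the log2(FPKM + 1) scale none of them was at least 25% higher or at least 20% lower, limits that correspond to the same fold in both directions. These were passed upward by 7.11% and downward by 5.31% of the genes tested. Limits of 1.5-fold were passed by 1.49% upward and 1.28% downward, and 2-fold limits by 0.493% and 0.460%.

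Among the AP-1 subunits, *FOS* encodes a Fos protein with a transactivation domain. It had 69.8 FPKM in CTRL GCs and 61.0 FPKM in pLVX-*RBP4* GCs, 12.6% lower, with a log2 fold change of -0.19. This change lay at the 15.3rd percentile of the genes tested. *FOSL1* encodes FRA1, a Fos-related protein that lacks the C-terminal transactivation domain of FOS. Its level was 24.6 FPKM in CTRL GCs and 22.9 FPKM in pLVX-*RBP4* GCs, a log2 fold change of -0.099 at the 29.6th percentile. *JUNB* encodes a Jun protein that activates transcription more weakly than JUN and can restrain proliferation. It had 161.6 FPKM and 172.4 FPKM, 6.69% higher in pLVX-*RBP4* GCs, a log2 fold change of 0.093 at the 67.7th percentile.

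As deposited, the 3 matched subunits together summed to 256.0 FPKM in CTRL GCs and 256.3 FPKM in pLVX-*RBP4* GCs. This sum was nearly equal while its parts differed. All genes summed to 1129670 FPKM in CTRL GCs and 1068960 FPKM in pLVX-*RBP4* GCs. With a common sum the 3 subunits would therefore sum to more in pLVX-*RBP4* GCs than in CTRL GCs. *JUNB* made up 63.1% of the subunit sum in CTRL GCs and 67.3% in pLVX-*RBP4* GCs. The share of *FOS* was 27.3% in CTRL GCs and 23.8% in pLVX-*RBP4* GCs. *FOSL1* made up 9.61% and 8.94%. The ratio of *FOS* to *JUNB*, which does not depend on how the groups are scaled to each other, was 0.432 in CTRL GCs and 0.354 in pLVX-*RBP4* GCs. The ratio of *FOSL1* to *JUNB* was 0.152 and 0.133. The unmatched subunits are not in these shares, which describe mRNA and not dimers.

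*ATF3* encodes a bZIP protein of the ATF/CREB class that is induced by stress, pairs with Jun proteins and as a homodimer represses transcription. It had 68.7 FPKM in CTRL GCs and 61.6 FPKM in pLVX-*RBP4* GCs, 10.3% lower, with a log2 fold change of -0.15. *ATF3* and *FOS* had nearly the same level in both groups. The ratio of *ATF3* to *JUNB* was 0.425 in CTRL GCs and 0.357 in pLVX-*RBP4* GCs.

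*EGR1* encodes a zinc finger factor that binds GC-rich sites. It had 358.6 FPKM in CTRL GCs and 299.2 FPKM in pLVX-*RBP4* GCs, 16.6% lower. The log2 fold change of -0.26 was the largest of the 6 in size and lay at the 8.76th percentile of the genes tested. The ratio of *EGR1* to *JUNB* was 2.22 in CTRL GCs and 1.74 in pLVX-*RBP4* GCs, and that of *EGR1* to *FOS* was 5.14 and 4.90. *EGR1* and *FOS* were thus both lower relative to *JUNB*, and less so relative to each other.

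*MYC* encodes a basic helix-loop-helix zipper factor that acts with MAX on genes of growth and ribosome production. It had 69.5 FPKM in CTRL GCs and 66.8 FPKM in pLVX-*RBP4* GCs, 3.86% lower, with a log2 fold change of -0.056 that turned to 0.022 with a common sum. Its change lay at the 38.3rd percentile, between the quartiles of the genes tested.

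**Figure D2:**
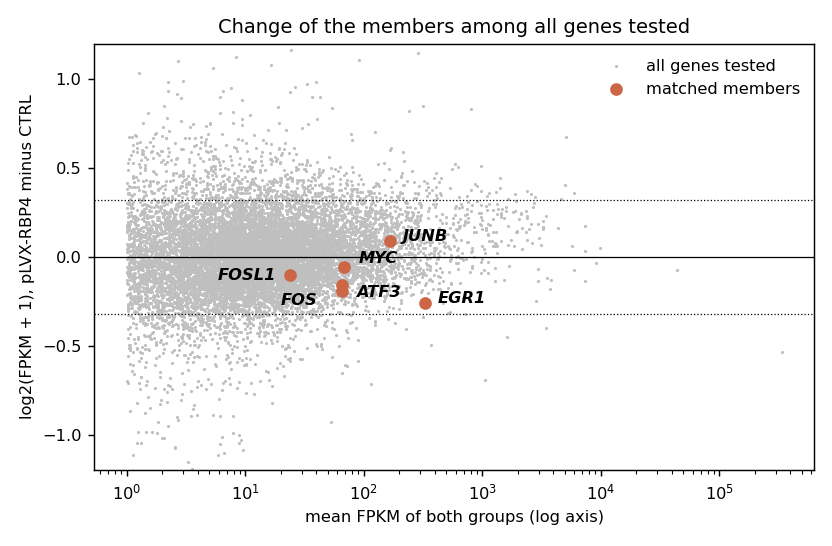
Log2 fold change, pLVX-*RBP4* minus CTRL on the log2(FPKM + 1) scale, against the mean FPKM of both groups on a log axis, for the genes tested (grey; 93 of 12382 lie outside the plotted range) and the 6 matched genes (orange). The dotted lines mark 25% higher and 20% lower, and the 6 genes lie between them, from -0.26 for *EGR1* to 0.093 for *JUNB*; *MYC* turns positive with a common sum.

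Each of the 6 genes had a mean of at least 20 FPKM, where changes were smaller than among weakly expressed genes. Among the 4486 genes above this limit, which was set after the values were seen, 43.1% were lower in pLVX-*RBP4* GCs and the median log2 fold change was 0.030. *EGR1* lay at the 4.61st percentile of these genes, with 206 of them changed further downward. *FOS* lay at the 9.63rd, *ATF3* at the 13.3rd, *FOSL1* at the 22.4th, *MYC* at the 31.6th and *JUNB* at the 63.5th percentile. These positions describe the deposited values and are not tests.

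**Figure D3:**
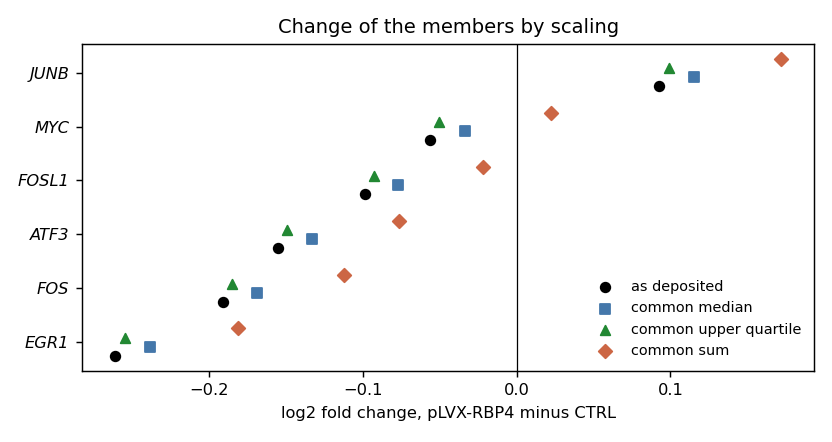
Log2 fold change of each matched gene, pLVX-*RBP4* minus CTRL, as deposited (circles) and after scaling both groups to a common median (squares), upper quartile (triangles) or sum (diamonds). *EGR1*, *FOS*, *ATF3* and *FOSL1* stay below 0 and *JUNB* above 0 in each case, while *MYC* turns from -0.056 to 0.022 with a common sum.

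*EGR1* was far above *EGR2* and *EGR3*, and *MYC* far above *MYCN*. *EGR2* had 5.21 FPKM in CTRL GCs and 4.68 FPKM in pLVX-*RBP4* GCs, and *EGR3* had 1.12 and 1.03 FPKM. All 3 EGR genes were lower in pLVX-*RBP4* GCs, as deposited and under each scaling, with log2 fold changes of -0.13 for *EGR2* and -0.065 for *EGR3*. The level of *EGR1* was 68.8 times that of *EGR2* in CTRL GCs and 63.9 times in pLVX-*RBP4* GCs. *MYC* was at 76.8 and 66.6 times the level of *MYCN*, which had 0.905 FPKM and 1.004 FPKM.

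*FOS*, *FOSL1*, *JUNB* and *ATF3* were compared with 12 other bZIP genes of the related lists, all matched by name and above 1 FPKM. Other bZIP genes of the lists were left out because they were not matched or had a mean below 1 FPKM. *JUN*, *JUND*, *FOSB* and *FOSL2* were among those not matched, and bZIP genes outside the lists were not looked up. The places given here therefore hold only within these 16 genes. *JUNB* stood second in CTRL GCs, after *NFE2L1* (184.1 FPKM), a factor of proteasome gene expression, and first in pLVX-*RBP4* GCs, where *NFE2L1* had 164.1 FPKM. *XBP1*, a factor of the unfolded protein response, came next with 140.5 FPKM in CTRL GCs and 145.2 FPKM in pLVX-*RBP4* GCs. *FOS* and *ATF3* held places 4 and 5 in both groups, in changed order. *ATF3* exceeded its relatives *ATF5* (24.99 and 26.2 FPKM), *ATF6* (29.97 and 29.98 FPKM), *ATF7* (14.5 and 12.7 FPKM) and *ATF1* (7.77 and 9.13 FPKM) in both groups.

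**Figure D4:**
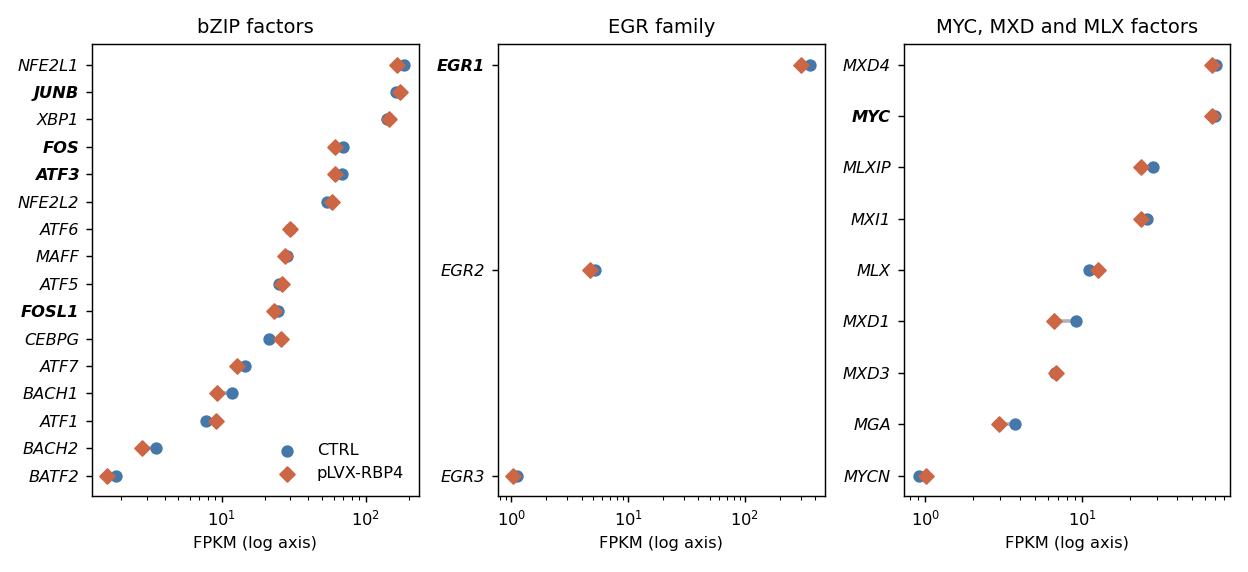
Levels in FPKM on log axes (circles, CTRL; diamonds, pLVX-*RBP4*; 1 value per group) of bZIP genes, EGR genes and genes of the MYC, MXD and MLX factors, with the matched members in bold. *JUNB* and *NFE2L1* lead the bZIP genes shown, which are not all bZIP genes. *EGR1* lies far to the right of *EGR2* and *EGR3*, and *MYC* and *MXD4* lie side by side at 66.5 to 70.4 FPKM.

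A list of 18 further genes of AP-1 type bZIP proteins had 10 matched genes, of which 7 passed the limit of 1 FPKM. In pLVX-*RBP4* GCs 6 of the 7 were lower and 1 was higher, against 49.8% lower over all genes tested. The median log2 fold change of the list was -0.17, or -0.086 with a common sum and -0.095 with no filter on low values. Of the 7, 1 was at least 20% lower on the log2(FPKM + 1) scale, a limit passed by 5.31% of all genes tested. *BACH1*, a repressor of antioxidant genes, had 11.9 FPKM in CTRL GCs and 9.24 FPKM in pLVX-*RBP4* GCs (-0.33), and *BACH2* had 3.47 and 2.80 FPKM (-0.23). *NFE2L2*, the antioxidant regulator NRF2, was the gene with the higher value, at 53.4 and 58.1 FPKM (0.12). *MAFF* was also higher with a common sum.

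Other immediate early genes went both ways. A list of 36 such genes had 20 matched, of which 19 passed the limit of 1 FPKM. Of the 19 tested, 13 were lower and 6 higher in pLVX-*RBP4* GCs, against 49.8% lower over all genes tested. The median of the 19 was -0.059. After rescaling to a common sum 8 were lower and 11 higher, and the median was 0.015. With a mean of at least 5 FPKM the median was -0.011. Of the 19, 1 was at least 20% lower on the log2(FPKM + 1) scale, a limit passed by 5.31% of all genes tested. *PTGS2*, the prostaglandin synthase of ovulation, had 4.83 FPKM in CTRL GCs and 3.47 FPKM in pLVX-*RBP4* GCs (-0.38). The nuclear receptor gene *NR4A3* had 1.94 and 1.41 FPKM (-0.28). *IER2* had 43.3 and 50.2 FPKM (0.21), and *GADD45B*, a stress sensor, had 16.6 and 18.9 FPKM (0.18). The most abundant was *CCN2* (CTGF), a matricellular factor, at 3034 and 2896 FPKM.

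Among the genes that feed into these factors are those of MAP kinases, SRF, CREB and their cofactors. A list of 40 such genes had 28 matched, of which 26 passed the limit of 1 FPKM. *CREB1* was not among the matched genes. Of the 26 tested, 20 were lower and 6 higher in pLVX-*RBP4* GCs, against 49.8% lower over all genes tested. The median log2 fold change of the 26 was -0.079. With a common sum 11 of the 26 were higher and the median was -0.0065. *MRTFA*, a cofactor of SRF, had 30.7 FPKM in CTRL GCs and 24.99 FPKM in pLVX-*RBP4* GCs (-0.29). The acetyltransferase gene *CREBBP* had 11.7 and 9.48 FPKM (-0.28). *MAP3K7*, the kinase TAK1, had 5.12 and 6.08 FPKM (0.21).

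A list of 17 feedback inhibitors of the MAP kinases had 7 matched genes, all above 1 FPKM. Of the 7, 4 were higher and 3 lower in pLVX-*RBP4* GCs, against 50.2% higher over all genes tested. The median of the 7 was 0.030. With a mean of at least 5 FPKM 2 were higher and the median was -0.035, and with a common sum it was 0.080. *DUSP1*, a phosphatase gene that is itself an immediate early gene, had 129.6 FPKM in CTRL GCs and 134.3 FPKM in pLVX-*RBP4* GCs (0.051). *DUSP9* had 1.57 and 1.06 FPKM (-0.32), *SPRY1* 3.43 and 4.08 FPKM (0.20). The ratio of *JUNB* to *DUSP1* was 1.246 in CTRL GCs and 1.283 in pLVX-*RBP4* GCs.

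Genes known as targets or co-regulators of *EGR1* were lower in 9 of 12 cases, against 49.8% of all genes tested. The median log2 fold change of the 12 was -0.084, and 6 of them were higher with a common sum. The median was then -0.0092, and -0.046 with no filter on low values. *TGFB1*, encoding transforming growth factor beta, had 62.4 FPKM in CTRL GCs and 53.6 FPKM in pLVX-*RBP4* GCs (-0.22). The matrix protein gene *THBS1* had 3959 and 3492 FPKM (-0.18). *PDGFA*, a growth factor gene, had 13.6 and 17.2 FPKM (0.31), and *FLT1*, a receptor for vascular endothelial growth factor, had 0.888 and 1.14 FPKM (0.18).

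Of 18 tested genes known as AP-1 targets, 16 were higher and 2 lower in pLVX-*RBP4* GCs, against 50.2% higher over all genes tested. The median of the 18 was 0.065, or 0.14 with a common sum. Both lower genes, *GCLC* and *MMP14*, were higher with a common sum. The collagenase gene *MMP1*, one of the differentially expressed genes of the study, had 3.49 FPKM in CTRL GCs and 6.55 FPKM in pLVX-*RBP4* GCs (0.75), and *MMP9*, a gelatinase gene, had 7.93 and 10.199 FPKM (0.33). They were the 2 genes of the 18 at least 25% higher on the log2(FPKM + 1) scale, a limit passed by 7.11% of all genes tested. *TIMP1*, an inhibitor of these proteases, was the most abundant, with 7271 and 7459 FPKM (0.037).

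The stress genes linked to ATF4 and *ATF3* were higher in 9 of 13 cases, against 50.2% of all genes tested. The median of the 13 was 0.047, and none of them was lower with a common sum, where the median was 0.13. *PSAT1*, an enzyme gene of serine synthesis, had 208.7 FPKM in CTRL GCs and 253.5 FPKM in pLVX-*RBP4* GCs (0.28). *CEBPG* had 21.2 and 25.8 FPKM (0.27), and the chaperone gene *HSPA5* had 656.5 and 744.9 FPKM (0.18). *MDM2*, a regulator of p53, had 23.7 and 22.6 FPKM (-0.067), but was higher with a common sum.

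In pLVX-*RBP4* GCs 13 of 16 tested genes of partners and antagonists of MYC were lower, against 49.8% of all genes tested, and 3 were higher. With a common sum 5 of the 16 were higher. The median log2 fold change was -0.17, as for the other bZIP genes, or -0.098 with a common sum, -0.096 with no filter on low values and -0.11 with a mean of at least 5 FPKM. Of the 16, 3 were at least 20% lower on the log2(FPKM + 1) scale, a limit passed by 5.31% of all genes tested. *MXD1*, an antagonist that competes with MYC for MAX, had 9.13 FPKM in CTRL GCs and 6.55 FPKM in pLVX-*RBP4* GCs (-0.42). The ratio of *MYC* to *MXD1* was 7.62 in CTRL GCs and 10.21 in pLVX-*RBP4* GCs. *MYCBP2*, a ubiquitin ligase gene, had 7.02 and 5.31 FPKM (-0.35). *MXD4*, the most abundant, had 70.4 and 66.5 FPKM, and the ratio of *MYC* to *MXD4* was 0.987 in CTRL GCs and 1.01 in pLVX-*RBP4* GCs. *RUVBL1*, an ATPase of chromatin complexes, had 18.4 and 22.5 FPKM (0.28).

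Of 34 tested genes known as MYC targets, 28 were higher and 6 lower in pLVX-*RBP4* GCs, against 50.2% higher over all genes tested. The median log2 fold change of the targets was 0.11, or 0.18 with a common sum. Of the 34, 5 were at least 25% higher, a limit passed by 7.11% of all genes tested. *NPM1*, a nucleolar protein of ribosome assembly, had 340.4 FPKM in CTRL GCs and 473.0 FPKM in pLVX-*RBP4* GCs (0.47). *GNL3*, another nucleolar gene, had 16.97 and 22.8 FPKM (0.40). The glycolytic genes *ENO1* (3117 and 2628 FPKM, -0.25) and *PKM* (3951 and 3609 FPKM, -0.13) were lower, as was the telomerase gene *TERT* (2.14 and 1.54 FPKM, -0.31). The target list was thus mostly higher while *MYC* itself was 3.86% lower as deposited and slightly higher with a common sum. Neither difference was tested.

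**Figure D5:**
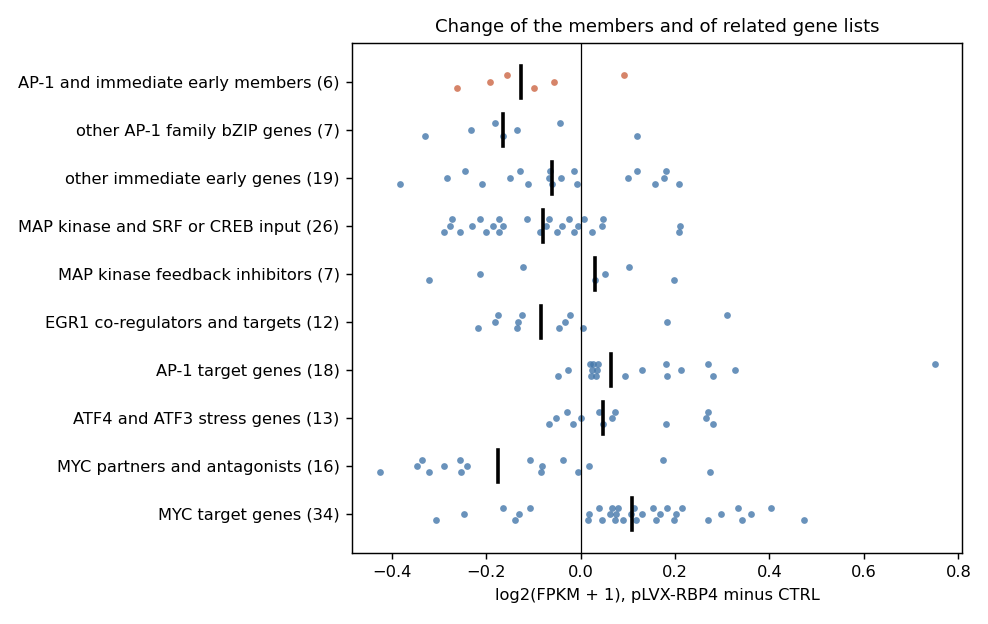
Log2 fold change of each tested gene, pLVX-*RBP4* minus CTRL on the log2(FPKM + 1) scale, for the 6 matched members (orange) and 9 related lists (blue), with the number of tested genes in brackets and the median as a black bar. The medians run from -0.17 for the other bZIP genes and the MYC partners to 0.11 for MYC targets, and that of the members is -0.13. The median of the other immediate early genes turns to 0.015 with a common sum, and that of the feedback inhibitors to -0.035 with a mean of at least 5 FPKM.

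Among tested genes with a gene name, *EGR1* was by both group values nearest to *COL4A2* (332.6 and 312.5 FPKM), *MSN* (330.3 and 290.3 FPKM) and *SLC16A3* (328.2 and 285.8 FPKM). The distances were 0.13, 0.13 and 0.14 on the log2(FPKM + 1) scale. Genes without a name were not searched. The log2 fold changes of the 3 genes were -0.090, -0.19 and -0.20, against -0.26 for *EGR1*. The likeness is thus mainly one of level and rests on 2 values per gene.

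The labelled cell type was checked against marker genes. Of 16 GC markers 10 were matched, all above 1 FPKM. In pLVX-*RBP4* GCs 6 of the 10 were lower, against 49.8% of all genes tested, and 4 were higher. The median log2 fold change of the 10 was -0.044 and turned to 0.033 with a common sum. Their FPKM summed to 854.2 in CTRL GCs and 885.4 in pLVX-*RBP4* GCs. Most of both sums came from *CDH2* (398.5 and 412.3 FPKM) and *SERPINE2* (254.6 and 277.9 FPKM), both higher in pLVX-*RBP4* GCs. *FST* and *AMHR2* were also higher. The hormone receptor gene *FSHR* (9.99 and 8.47 FPKM) was lower, as were *INHA*, *NR5A1*, *NR5A2*, *GATA4* and *WT1*. Of these, *INHA* and *GATA4* were higher with a common sum. *FOXL2*, *CYP19A1* and *AMH* were not matched. The 10 matched stromal and smooth muscle markers summed to 3251 and 3512 FPKM, of which the actin-binding *TAGLN* had 1809 and 1891 FPKM. Among the 9 of these above 1 FPKM, 6 were higher in pLVX-*RBP4* GCs, against 50.2% of all genes tested. The median log2 fold change of the 9 was 0.095. The sums were 23.6 and 22.6 FPKM for 4 endothelial markers and 16.7 and 16.9 FPKM for 4 epithelial and oocyte markers. Those of 6 leukocyte markers were 48.8 and 55.6 FPKM, mostly from *CD14* (42.9 and 48.9 FPKM). *CD68* had 4.02 and 4.59 FPKM and *LYZ* 1.01 and 1.35 FPKM, while *PTPRC*, *CSF1R* and *ITGAM* lay below 1 FPKM in both groups. Of 7 theca and luteal markers 3 were matched, with sums of 673.2 and 669.8 FPKM, nearly all from *CYP11A1*. A sum carried by 1 gene does not tell theca or luteal cells from GCs. *LHCGR* had 0.209 and 0.0937 FPKM, and *INSL3* 0 and 0.292 FPKM. In cultures sequenced as a whole, fewer cells of a type and less RNA per cell cannot be told apart, and the part of other cells in the levels of the AP-1 and immediate early genes was not tested.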

How the data were processed

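RNA-seq libraries of porcine GCs were grouped by their titles, with 3 libraries per group. According to the study's methods, the authors filtered the paired-end reads, aligned them to Sscrofa10.2 (the build is also given in the submitters' processing notes) with TopHat2 and computed FPKM and the comparison with Cuffdiff of Cufflinks. The versions and the annotation release were not given in the sources used here. The deposited values are FPKM, 1 per gene and group, in 2 columns, and each value is the authors' value for its group. A linear model with limma had been planned for values per library. With 1 value per group neither p-values nor errors could be computed.

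The members and lists were chosen with earlier results of these data known. Symbols came from a table of current Ensembl pig gene names, which matched 10489 of 17950 identifiers. A match rests on the identifier alone, and an identifier may stand for a different gene model in the older annotation. Changes are differences of log2(FPKM + 1), counted over 12382 genes with a mean of at least 1 FPKM. From each related list the text names genes among the 2 with the largest increase, the 2 with the largest decrease and the most abundant one. Further cell type markers were named, after their values were seen, to show what made up the sums. *EGR2*, *EGR3*, *MYCN*, *MAFF*, *XBP1*, *NAB1*, *NAB2* and the ATF genes were named as relatives or co-regulators of members, after their values were seen. Alternative settings included pseudocounts of 0.1, 0.01 and 0, no filter or a mean of at least 5 FPKM, and scaling to a common median, upper quartile or sum. The limit of 20 FPKM was added after seeing the data. The calculations were checked on made-up changes and used Python 3.11.15, numpy 2.4.6 and pandas 2.3.3. No genome, promoter or protein sequence was used here, so no coordinates or sequences are given and the planned motif search was not run.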

Additional observations from a re-analysis of the deposited data

How the results depend on the processing

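No paired analysis was possible because the table holds 1 value per gene and group, and leaving out each replicate was not run for the same reason. Values on the log2 scale were taken as moved at a difference of at least 0.1, and counts at more than 1.5 times. Of the 6 members, *EGR1*, *FOS*, *ATF3* and *FOSL1* were lower and *JUNB* higher under all 8 alternatives, and *MYC* turned to 0.022 with rescaling to a common sum, which shifted the median of all genes tested from 0.0014 to 0.072. With a common sum, the genes higher numbered 2 of the members, 2 of the other bZIP genes, 11 of the other immediate early genes (8 lower, median 0.015), 11 of the MAP kinase, SRF and CREB genes, 6 of the *EGR1* list and 5 of the MYC partners, while 0 AP-1 targets and 0 ATF4 and *ATF3* stress genes were lower. The medians of the GC markers and of the theca and luteal markers turned to 0.033 and 0.072 with a common sum, the latter also to 0.015 with a common median. With a mean of at least 5 FPKM, 8 other immediate early genes were lower, and the feedback inhibitors had 2 higher genes and a median of -0.035. At a mean of at least 5 FPKM, where fewer genes are tested, 955 were at least 25% higher or 20% lower on the log2(FPKM + 1) scale. On that scale 168 passed 1.5-fold and 63 passed 2-fold. The count past 1.5-fold was 556, 596 and 547 with pseudocounts of 0.1, 0.01 and 0, and that past 2-fold was 198 and 217 with 0.1 and 0.01. With a pseudocount of 0, genes at 0 in a group are left out. The table gives no fragment counts per gene and no values per library, so differences of the size seen for the members were not set against counting error or the spread between libraries.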

Other observations

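Among the genes of the related lists, 3 matched genes were listed at 0 FPKM in both groups, namely *CDKN1A*, *ZFP36* and *BATF3*. *NCL*, encoding the abundant nucleolar protein nucleolin, was listed at 0.456 FPKM in CTRL GCs and 0.643 FPKM in pLVX-*RBP4* GCs, while *NPM1* had 340.4 and 473.0 FPKM. These 4 genes were chosen after their values were seen. Their identifiers were matched to current gene names, and whether the gene models of Sscrofa10.2 cover the same transcripts was not tested. *NAB2*, a co-repressor gene of *EGR1*, had 0.316 FPKM in CTRL GCs and 0.324 FPKM in pLVX-*RBP4* GCs, below the limit of 1 FPKM, and its relative *NAB1* had 9.10 and 8.79 FPKM. The level of *EGR1* was 39.4 times that of *NAB1* in CTRL GCs and 34.1 times in pLVX-*RBP4* GCs.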
